A study of Homo sapiens with 4 samples.

Results

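NRF2 (gene NFE2L2), its inhibitor KEAP1 and 7 target genes of NRF2 were read from RNA-seq of HaCaT, a spontaneously immortalized cell line from human skin keratinocytes. The 9 genes were chosen by symbol from the 44591 genes of the files, 19233 of them protein-coding, and each was found once. The targets are NQO1, HMOX1, GCLC, GCLM, TXNRD1, SRXN1 and OSGIN1. The study sequenced 4 biological replicates, all untreated and in 1 condition, grown in Dulbecco's modified Eagle medium with fetal bovine serum, so no treated group was compared. Nothing in the sample labels says how the cultures were separated, so a p-value measures only the spread between these samples, which may be technical.

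NRF2 is a transcription factor that switches on genes against oxidants and reactive chemicals, and in skin it is known for protecting keratinocytes from ultraviolet and oxidative injury. In unstressed cells KEAP1 holds the NRF2 protein and hands it to a CUL3 ubiquitin ligase for destruction. Oxidants modify KEAP1, NRF2 escapes, pairs with a small MAF protein and binds the antioxidant response element of its targets. This control acts on the NRF2 protein, which transcript levels do not measure.

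Levels are given as TPM, the count per kilobase of gene length scaled to 1000000 over the protein-coding genes of a library. TPM allows genes to be compared within a library. The total count was 17056035 to 19745170 in replicates 2 to 4 and 73082279 in replicate 1, which stood apart by its depth and its classes of RNA. Protein-coding genes took 76.1% of the counts of replicate 1 and 95.3% to 96.4% in the others, and small RNA genes took 21.5% against at most 0.231%. Across detected genes, the deviation of replicate 1 from the others had a Spearman correlation of -0.51 with the GC content of the transcript, and the deviation of replicate 3 from replicates 2 and 4 had one of -0.53 with gene length. These are descriptions across genes of the same libraries, and the genes of a library are not independent replicates. The keratinocyte markers were present in every library, with 1920 to 5396 TPM for KRT5 and 6375 to 7642 TPM for KRT14, and their summed level over 8 markers was 13183 to 18004 TPM. The summed level was 5.20 to 12.3 TPM for 7 fibroblast markers, with its highest value in replicate 3, 3.74 to 9.12 TPM for 5 melanocyte markers, 3.51 to 8.92 TPM for 5 immune markers and 0.859 to 2.36 TPM for 3 endothelial markers. PECAM1, an endothelial marker, and TYR, a melanocyte marker, were at 0 counts in 4 of 4 libraries. The melanocyte markers MITF and PMEL had 130 to 995 and 23 to 121 counts. The endothelial marker VWF had 507 counts in replicate 1 and at most 7 in the others. CDH5, also endothelial, went the other way, with 0 counts in replicate 1 and 21, 32 and 46 in replicates 2 to 4. The immune marker CD14 had 81 to 133 counts. By TPM the fibroblast markers COL1A2, COL3A1, PDGFRA and POSTN were highest in replicate 3. DCN and LUM were highest in replicate 1 and COL1A1 in replicate 4. The median of 15 interferon-induced genes was 11.6 and 19.2 TPM in replicates 1 and 4 and 299 and 334 TPM in replicates 2 and 3.

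All 9 genes were detected, that is, had a mean TPM above 1, as did 63.3% of all protein-coding genes. By mean TPM the order was NQO1, SRXN1, TXNRD1, KEAP1, GCLC, NFE2L2, OSGIN1, GCLM and HMOX1. NQO1 stood at percentile 94.8 of the detected protein-coding genes and HMOX1 at percentile 18.5, and the other 7 lay between percentiles 52.7 and 90.3. By this mean 8 of the 9 were above the median gene and HMOX1 was below it, against 6 above it without replicate 3. OSGIN1 stood at percentiles 34.2 and 40.2 in replicates 1 and 4, and GCLM at percentile 34.8 in replicate 1.

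**Figure D1:**
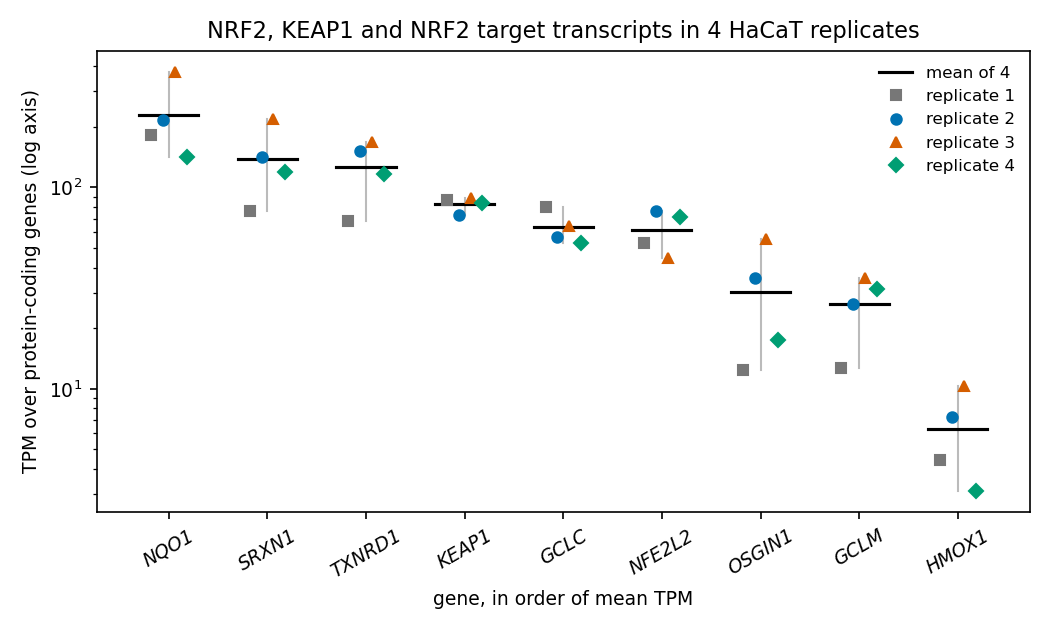
TPM over protein-coding genes (log axis) of the 9 genes, in order of mean TPM, with 1 symbol for each of 4 HaCaT replicates, a black bar for the mean and a grey line from the lowest to the highest replicate. KEAP1 spans 73.3 to 88.9 TPM, the narrowest range of the 9, while OSGIN1 spans 12.4 to 55.7 TPM.

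NFE2L2, the gene of NRF2 itself (chromosome 2, 178095031 to 178129859, minus strand, positions on hg19), had 52.8, 76.3, 44.6 and 71.6 TPM in replicates 1 to 4. It was highest in replicate 2, as were 23.3% of detected genes, and lowest in replicate 3, as were 40.2%, and its mean was 61.4 ± 15.1 (SD, n = 4). KEAP1, the adaptor that presents NRF2 to the ligase (chromosome 19, 10596796 to 10614054, minus strand), had 87.1, 73.3, 88.9 and 83.3 TPM. Its mean was 83.2 ± 6.99 (SD, n = 4), and its highest replicate, replicate 3, was 1.21 times its lowest, replicate 2, where 9.47% of detected genes were lowest. The SD of KEAP1 on the log2(TPM + 1) scale, 0.12, stood at percentile 3.82 of the 3051 detected genes with a mean within 1 log2 unit of it, so KEAP1 varied less between the replicates than nearly all genes of its level. Both statements rest on the scaling: in TPM over all genes, small RNAs included, replicate 1 was the lowest for each gene, at 16.3 TPM against 39.0 to 67.7 for NFE2L2 and at 27.0 TPM against 65.0 to 77.8 for KEAP1. The SD of NFE2L2, 0.36, stood at percentile 37.5 of 3768 such genes.

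The 2 transcripts did not keep one order. Per kilobase NFE2L2 had 0.606 times the reads of KEAP1 in replicate 1 (95% Clopper-Pearson interval 0.583 to 0.630), 1.04 times in replicate 2 (0.970 to 1.12), 0.502 times in replicate 3 (0.469 to 0.537) and 0.860 times in replicate 4 (0.805 to 0.919). KEAP1 was thus the higher of the pair in 3 of 4 replicates, and in replicate 2 the interval included equal levels. The intervals of these ratios, and of the TPM values below, hold counting error alone. Without molecular identifiers repeated reads of 1 molecule are counted again, so even the counting error may be understated. The mean difference of NFE2L2 from KEAP1 was -0.46 ± 0.47 on the log2(TPM + 1) scale (SD, n = 4; p = 0.250 in an exact permutation test over sign flips, two-sided), within the spread between replicates.

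NFE2L1 and BACH1 are related factors that bind the same response element, and both were set against NFE2L2. NFE2L1, also called NRF1 and known for the control of proteasome genes, had 231, 204, 137 and 288 TPM and was above NFE2L2 in 4 of 4 replicates. BACH1, a repressor that heme releases from the element, had 34.8, 13.5, 5.31 and 11.8 TPM and was below NFE2L2 in 4 of 4. The ratio of NFE2L2 to BACH1 was 1.52 in replicate 1 (95% Clopper-Pearson interval 1.46 to 1.58) and 5.64 to 8.40 in replicates 2 to 4. Over the 4 replicates the log2 difference from NFE2L1 was -1.78 ± 0.33 and that from BACH1 was 2.09 ± 1.02 (SD, n = 4; exact permutation test, p = 0.125 and 0.143 after Benjamini-Hochberg adjustment over 8 pairs, for each). With 4 replicates this two-sided test cannot go below 0.125, so no difference within a pair could pass 0.05.

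GCLC and GCLM encode the catalytic and the modifier subunit of glutamate-cysteine ligase, the rate-limiting enzyme of glutathione synthesis. GCLC (chromosome 6, 53362139 to 53409927, minus strand) had 79.7, 56.6, 64.5 and 53.2 TPM, with a mean of 63.5 ± 11.8 (SD, n = 4). It was the only one of the 9 genes with its highest value in replicate 1, as had 40.2% of detected genes, and in TPM over all genes it was instead lowest there, at 24.7 TPM. GCLM (chromosome 1, 94350755 to 94375154, minus strand) had 12.7, 26.4, 35.7 and 31.2 TPM, with a mean of 26.5 ± 9.94 (SD, n = 4), and was lowest in replicate 1. The transcript of the catalytic subunit was the higher in 4 of 4 replicates (log2 difference 1.30 ± 0.85, SD, n = 4; exact permutation test, p = 0.125, adjusted 0.143). Per kilobase GCLC had 6.26 times the reads of GCLM in replicate 1 (95% Clopper-Pearson interval 5.93 to 6.62) and 2.14, 1.81 and 1.70 times in replicates 2 to 4, where the lowest bound was 1.58 and the highest 2.33. Without replicate 1 the log2 difference was 0.89. The order rests on the gene lengths: with the union of annotated exons as length GCLC was the higher in 2 of 4 replicates and the difference was 0.25 ± 0.86 (SD, n = 4; exact permutation test, p = 0.875). The GC content of the GCLM transcript is 37.3%, at percentile 5.04 of the detected genes, and that of GCLC is 44.3%.

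TXNRD1, the cytosolic thioredoxin reductase (chromosome 12, 104609557 to 104744085, plus strand), had 67.8, 151, 168 and 117 TPM, with a mean of 126 ± 44.2 (SD, n = 4). SRXN1, sulfiredoxin, which repairs over-oxidized peroxiredoxins (chromosome 20, 627259 to 634014, minus strand), had 76.0, 142, 218 and 120 TPM, with a mean of 139 ± 59.2 (SD, n = 4). Both were lowest in replicate 1, next in replicate 4, then replicate 2, and highest in replicate 3. Their profiles over the replicates, each centred on its own mean of log2(TPM + 1), lay 0.17 apart as a root mean square over 4 replicates, the second closest of the 36 pairs among the 9 genes. TXNRD2, the mitochondrial reductase, had 25.4 to 47.3 TPM and was below TXNRD1 in 4 of 4 replicates (log2 difference of TXNRD1 from TXNRD2 1.74 ± 0.30, SD, n = 4; exact permutation test, p = 0.125, adjusted 0.143). TXNRD1 overlaps EID3 on its own strand, and EID3 had 9 to 106 counts against 4023 to 7600 for TXNRD1.

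NQO1, the quinone reductase often read as the marker of NRF2 activity (chromosome 16, 69743304 to 69760571, minus strand), had 182, 217, 376 and 142 TPM. Replicate 3 was the highest and replicate 4 the lowest, and the mean was 229 ± 103 (SD, n = 4). The counting intervals of NQO1 lay apart for every pair of replicates, a trait whose share over all detected genes was not computed. An antisense gene overlaps 710 bases of NQO1 and had 6 to 119 counts, against 2775 to 11626 for NQO1. Whether reads were counted by strand is not given in the sources used here, so reads of the 2 genes cannot be told apart there. The paralogue NQO2 had 17.9, 35.9, 24.9 and 26.6 TPM, so it was not highest where NQO1 was. Per kilobase NQO1 had 10.2, 6.04, 15.1 and 5.32 times the reads of NQO2 in replicates 1 to 4 (log2 difference 3.02 ± 0.69, SD, n = 4; exact permutation test, p = 0.125, adjusted 0.143).

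HMOX1, the inducible heme oxygenase (chromosome 22, 35777060 to 35790207, plus strand), was the lowest of the 9 in 4 of 4 replicates, with 4.45, 7.28, 10.3 and 3.12 TPM from 172, 77, 147 and 37 counts. Its mean was 6.29 ± 3.18 (SD, n = 4). The exact Poisson 95% interval was 8.69 to 12.1 TPM in replicate 3 and 2.20 to 4.30 TPM in replicate 4, which lie apart. Those of replicates 2 and 3 overlapped, as did those of replicates 1 and 4. The constitutive enzyme HMOX2 had 48.9 to 65.5 TPM, and per kilobase HMOX1 had 0.0639 to 0.165 times its reads (log2 difference -3.07 ± 0.46, SD, n = 4; exact permutation test, p = 0.125, adjusted 0.143). In these cultures most heme oxygenase transcript was thus that of HMOX2, in 4 of 4 replicates.

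OSGIN1, an oxidative stress induced growth inhibitor (chromosome 16, 83986827 to 83999937, plus strand), had 12.4, 35.4, 55.7 and 17.4 TPM, with a mean of 30.2 ± 19.6 (SD, n = 4). It varied most of the 9, with its highest replicate 4.49 times its lowest (6 of the 9 passed 2-fold, against 64.2% of detected genes), and its SD of 0.94 on the log2(TPM + 1) scale stood at percentile 85.1 of 4901 genes of similar level. The counting intervals of all 4 replicates lay apart, as did those of NQO1, GCLM, TXNRD1 and SRXN1. The share of all detected genes with such intervals was not computed, so these genes cannot be set apart from genes at large by this. OSGIN2, its paralogue, was lower in 4 of 4 replicates (log2 difference 1.26 ± 1.00, SD, n = 4; exact permutation test, p = 0.125, adjusted 0.143), by 1.25 times per kilobase in replicate 1 and 5.75 times in replicate 3. With the union of annotated exons as length this difference was 0.53 ± 1.00 (SD, n = 4; exact permutation test, p = 0.50).

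**Figure D2:**
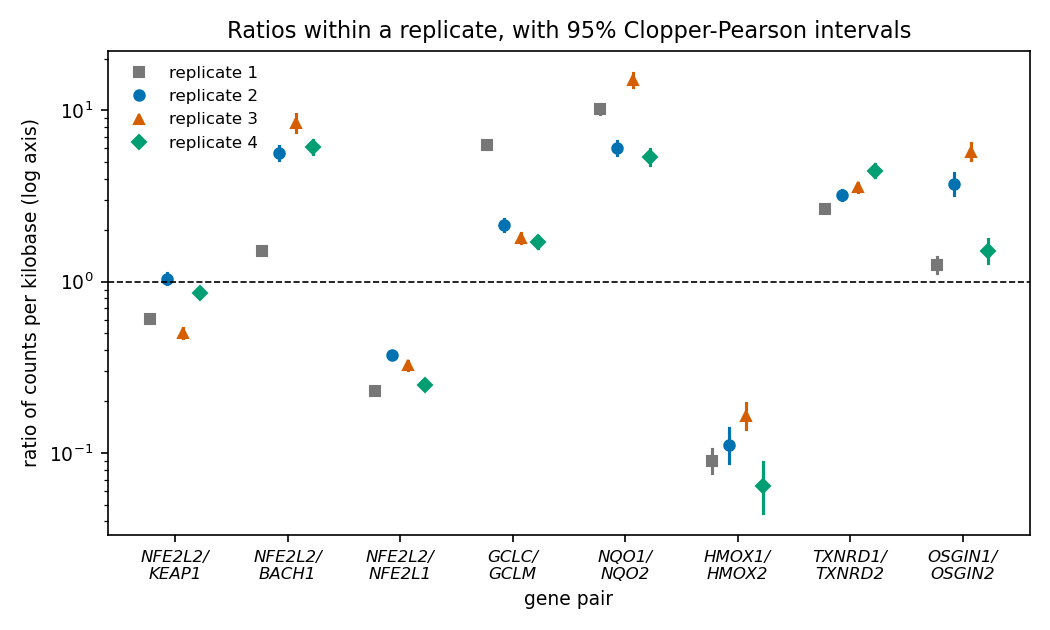
Ratio of counts per kilobase of the first gene to the second (log axis) for 8 pairs, with 1 symbol for each of 4 replicates and bars for the 95% Clopper-Pearson interval of each count ratio. The dashed line marks equal levels: 7 pairs lie on 1 side of it in every replicate, while NFE2L2 and KEAP1 run from 0.502 to 1.04.

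Of the 8 neighbours in the order of mean TPM, 3 kept their order in 4 of 4 replicates. NQO1 was above SRXN1 by 0.72 ± 0.42 on the log2(TPM + 1) scale, KEAP1 above GCLC by 0.40 ± 0.21 and GCLM above HMOX1 by 1.93 ± 0.71 (SD, n = 4; two-sided exact permutation test, p = 0.125, and 0.333 after adjustment over 8 pairs, for each). The other 5 changed order between replicates. SRXN1 and TXNRD1 differed by 0.12 ± 0.20, GCLC and NFE2L2 by 0.06 ± 0.56 and OSGIN1 and GCLM by 0.05 ± 0.63 (SD, n = 4), less than their spread. NFE2L2 was above OSGIN1 in 3 of 4 replicates, and OSGIN1 was the higher in replicate 3. TXNRD1 was above KEAP1 in 3 of 4, and KEAP1 was the higher in replicate 1.

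Most of the target genes were highest in replicate 3. Of the 9 genes, 7 had their highest value there (6 of the 7 targets, and KEAP1), as had 13.3% of the 12165 detected protein-coding genes. Set against replicates 2 and 4 alone, replicate 3 was above both for all 7 targets and for KEAP1, against 20.1% of detected genes. NFE2L2 was the only one below both, as were 60.0% of detected genes. Replicate 2 shared part of this: NQO1, HMOX1, TXNRD1, SRXN1 and OSGIN1 were each higher in replicates 2 and 3 than in replicates 1 and 4. GCLC and GCLM were not. The interferon-induced genes were also higher in replicates 2 and 3. The share of all detected genes with this pattern was not computed, so it cannot be called particular to these 5 genes or tied to the interferon-induced genes. Replicate 4 was lowest for NQO1, HMOX1 and GCLC, against 12.9% of detected genes, and highest for none of the 9, against 23.3%. The share among the 7455 detected genes whose length lies within that of the 9 genes, 1590 to 5051 bases, was 13.5% for the highest of 4 replicates and 19.9% for the comparison with replicates 2 and 4, a background chosen after seeing the data. With a mean TPM above that of HMOX1 as well, 15.2% of 6155 genes were highest in replicate 3.

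The sizes differed among the targets. The replicate compared is the one in which most of these genes were highest, so the shares above and the percentiles below are descriptions and not a test. On the log2(TPM + 1) scale, replicate 3 minus the mean of replicates 2 and 4 had a median of -0.30 over all detected genes, with its 95th percentile at 0.57. OSGIN1 was at 1.13, NQO1 at 1.10 and HMOX1 at 0.95, each above the 99th percentile, and SRXN1 at 0.73 was at percentile 97.8. TXNRD1 was at 0.33, GCLM at 0.30 and GCLC at 0.23, at percentiles 88.0, 86.9 and 83.6. KEAP1 was at 0.18, and its counting interval in replicate 3 overlapped those of replicates 1 and 4. NFE2L2 went the other way, at -0.72 and percentile 23.0, so among replicates 2 to 4 the transcript of NRF2 was lowest in the library in which 7 of 7 targets were highest. In the deposited values NFE2L2 was lower in replicate 2, at 29.8 RPKM, than in replicate 3, at 39.0 TPM, and these units differ. Under other scalings the median of all detected genes moved between -0.34 and 0.18, and the 7 targets lay above it and above 0 in each. The summed TPM of the 7 targets was 435, 636, 928 and 484 in replicates 1 to 4, with a mean of 621 ± 222 (SD, n = 4). The part of the interferon-induced genes, the fibroblast markers and the relation of replicate 3 to gene length in these differences was not tested.

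**Figure D3:**
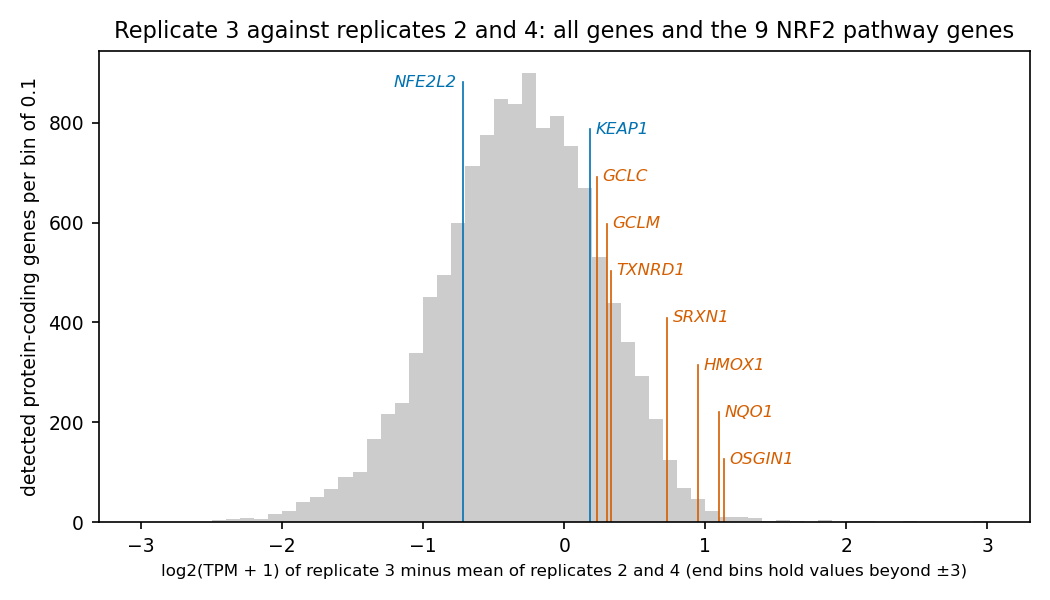
Histogram of all 12165 detected protein-coding genes by log2(TPM + 1) of replicate 3 minus the mean of replicates 2 and 4, with a line for each target (orange) and for NFE2L2 and KEAP1 (blue), whose heights carry no value. The median gene is at -0.30. NFE2L2 lies left of it at -0.72, and the other 8 genes lie right of 0, up to 1.13 for OSGIN1.

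Replicate 1 was lowest for 4 of the 9 genes, GCLM, TXNRD1, SRXN1 and OSGIN1, against 37.5% of detected genes, a share near that of genes at large. In TPM over all genes it was lowest for 9 of 9. The mean of replicates 2 to 4 on the log2(TPM + 1) scale was 2.51 times replicate 1 (folds of TPM + 1) for OSGIN1, 2.32 times for GCLM, 2.10 times for TXNRD1 and 2.02 times for SRXN1, at percentiles 14.1 to 19.8 of the same difference over all genes. GCLC was the reverse, with replicate 1 above the others by 0.45 on this scale. The GC content of the transcripts of the 4 genes lowest in replicate 1 ranges from 37.3% for GCLM to 63.4% for OSGIN1. The median of detected genes is 49.1%. The part of GC content and of the classes of RNA in replicate 1 was not tested.

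**Figure D4:**
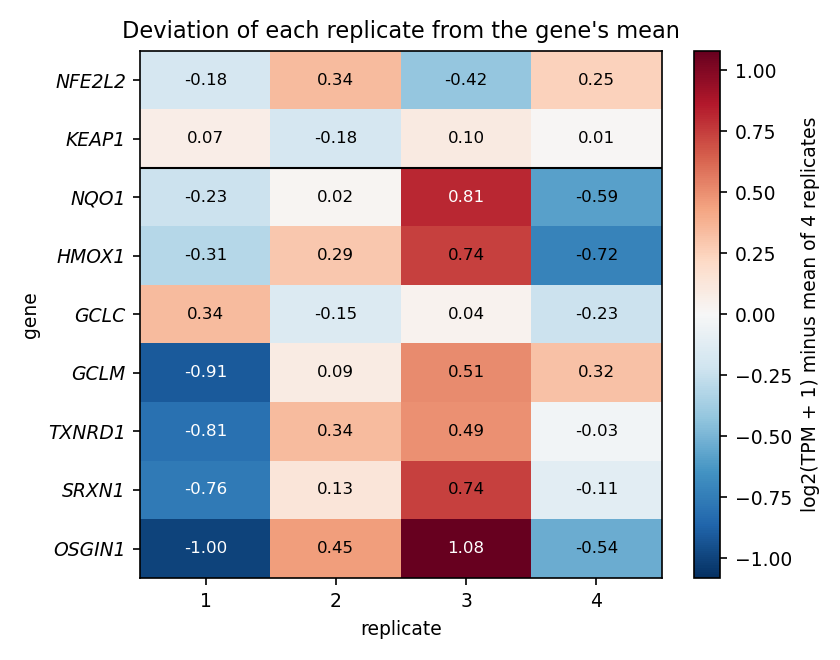
Log2(TPM + 1) of each replicate minus the mean of the 4 replicates of that gene, in colour and as numbers, with the 2 regulators above the line and the 7 targets below. In replicate 3 the 7 targets lie between 0.04 and 1.08 and NFE2L2 at -0.42. In replicate 1 GCLM, TXNRD1, SRXN1 and OSGIN1 lie at -0.76 or lower.

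By their profile over the 4 replicates the closest pair of the 9 was NQO1 and HMOX1, at a root mean square distance of 0.16 in log2 units, although their mean levels were 229 and 6.29 TPM. Next were TXNRD1 and SRXN1 at 0.17 and KEAP1 and GCLC at 0.18. The most distant pair was NFE2L2 and OSGIN1 at 0.94. Among all detected genes, the nearest to NFE2L2 were SLC44A4, LARP4B and INPP4A (0.017 to 0.023), the nearest to KEAP1 were PFDN6, AGK and ELP5 (0.020 to 0.030), and the nearest to HMOX1 were COPS9, RNF25 and PNP (0.061 to 0.098). With 4 replicates many genes share a profile, so these distances are descriptions.

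The antioxidant response element was searched for in the 250 bases before the start of each gene, in the promoter sequences of RefSeq (GRCh38.p14). Only the first promoter entry of each gene was used. The search was for the core TGACNNNGC on both strands, where N is any base. Of the 9 genes 8 had an entry, and 2 of these 8 held the core, GCLM and TXNRD1. HMOX1 had no entry and was not searched. The core was found in 11.5% of 14511 protein-coding genes of the files and in 10 of 41 other pathway genes. Elements farther from the start, or near another start of the gene, lie outside this window. The 2 matches are shown as the only such sites in the windows of these 8 genes, on the strand of the gene, with the core or its reverse complement in capitals. GCLM holds the reverse complement, 34 to 26 bases before its start (chr1:93909446-93909474, minus strand), and TXNRD1 holds the core itself, 99 to 91 bases before its start (chr12:104215670-104215698, plus strand).
GCLM: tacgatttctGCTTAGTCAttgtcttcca
TXNRD1: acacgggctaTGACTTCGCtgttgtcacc
Both genes were lowest in replicate 1 and highest in replicate 3, and so were SRXN1 and OSGIN1, in whose windows these letters were not found.

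The wider pathway went both ways in replicate 3, with a median between that of the targets and that of all detected genes. Of 57 other genes of the pathway, 54 were detected, against 63.3% of protein-coding genes, and BACH2, CES1 and MGST1 were below a mean TPM of 1. Of the 54, 11 had their highest value in replicate 3, 19 were above replicates 2 and 4 there and 26 were below both. The shares over all detected genes were 13.3%, 20.1% and 60.0%. The median of replicate 3 minus the mean of replicates 2 and 4 was -0.10 for the 54 genes, 0.73 for the 7 targets and -0.30 for all detected genes, on the log2(TPM + 1) scale.

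Among 16 regulators and partners of NRF2, 15 were detected. SQSTM1, the autophagy receptor p62 that binds KEAP1 and is itself a target of NRF2, was the highest at 551 ± 192 TPM (SD, n = 4), with 572, 509, 794 and 327 TPM, and like NQO1 it was highest in replicate 3 and lowest in replicate 4. Of the ligase, RBX1 had 113 ± 35.5 TPM and CUL3 had 19.2 ± 5.81 TPM (SD, n = 4). Of the small MAF partners, MAFK had 52.7 ± 16.3 TPM, MAFG 33.6 ± 14.6 TPM and MAFF 26.8 ± 10.2 TPM (SD, n = 4), and all 3 were lowest in replicate 1, as were 5 of the 15 detected regulators and 37.5% of all detected genes. NFE2L3, a further relative of NRF2, had 2.64 TPM in replicate 1 and 38.5, 53.1 and 43.2 TPM in replicates 2 to 4. DPP3 and PALB2, which compete with NRF2 for KEAP1, had 101 ± 10.7 and 16.5 ± 8.69 TPM (SD, n = 4), a stable and a variable level. The second route to NRF2 destruction, through the kinase GSK3B and the ligase subunit BTRC, had 19.4 to 45.3 and 8.63 to 15.2 TPM, and the coactivators EP300 and CREBBP had 28.6 ± 13.2 and 24.1 ± 13.5 TPM (SD, n = 4 for each). Of the 15 detected regulators, 8 were lowest in replicate 3, like NFE2L2 and 40.2% of all detected genes.

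The enzymes around the 7 targets ranged widely in level. In the glutathione list GSTP1, a glutathione transferase, had 2127 ± 258 TPM and SLC3A2, the heavy chain of the cystine transporter, 809 ± 313 TPM (SD, n = 4), and MGST1, a microsomal transferase, was the lowest at 0 to 5 counts. In the thioredoxin list TXN, the substrate of TXNRD1, had 1371 ± 485 TPM, PRDX1, a peroxiredoxin that SRXN1 repairs, had 975 ± 252 TPM, and TXNRD3 was lowest at 8.98 ± 2.05 TPM (SD, n = 4). TXN and PRDX1 were highest in replicate 1, as were 40.2% of detected genes. TXNRD1 and SRXN1 were lowest there, as were 37.5%. TXN and PRDX1 both have processed pseudogenes that could take or give reads. Of the enzymes that supply NADPH, the transaldolase TALDO1 had 693 ± 84.5 TPM, the transketolase TKT 528 ± 69.4 TPM and the malic enzyme ME1 26.9 ± 10.8 TPM (SD, n = 4). In the list of quinone and carbonyl detoxification UGT1A6, a glucuronosyltransferase, had 215 ± 125 TPM and TRIM16L 174 ± 61.6 TPM (SD, n = 4), and CES1, a carboxylesterase, was the lowest with 19 counts in replicate 1 and 0 in the others. UGT1A6 shares exons with other UGT1A genes and its reads may be split among them. Of the heme and iron list the ferritin chains FTH1, with 8974 ± 4089 TPM, and FTL, with 1450 ± 423 TPM, were the highest, both in replicate 3 and lowest in replicate 1, and SLC48A1, a heme transporter, was the lowest at 47.6 ± 18.9 TPM (SD, n = 4). The ferritin genes have many processed pseudogenes, so their levels are uncertain too.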

How the data were processed

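RNA-seq of 4 untreated HaCaT replicates, each with 1 table of 44591 genes, was used. The authors deposited raw counts per gene with a gene length, RPKM for replicates 1 and 2 and TPM for replicates 3 and 4. Per the labels the submitters' processing notes name HISAT2, HISAT, TopHat2, Bowtie2 and hg19. The counting program, annotation, strand setting and RNA selection are not given in the sources used here. Since the deposited units differ, TPM was computed from counts and lengths over the 19233 protein-coding genes, and 1 was added before log2, which understates the change of low genes. Detected means a mean TPM above 1.

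Log2 differences between genes, taken within each replicate, went into an exact permutation test (two-sided, over all sign flips), with Benjamini-Hochberg adjustment over 8 pairs. With 1 condition no differential expression was tested. The 9 genes, the lists, the pairs and the rule for naming genes (the 9 genes, their pair partners, every regulator, and per list the highest 2, the lowest and those below a mean TPM of 1, plus the 3 nearest profiles of NFE2L2, KEAP1 and HMOX1) were chosen with earlier results of these data known. EID3 was named after its values were seen. Alternatives changed the scaling, length, pseudocount, filter and replicates. GC content came from the longest protein-coding transcript in GENCODE release 29 (97.7% of detected genes), exon unions for 1 alternative from the same release. Code was tested on simulated data. The code ran in Python 3.11.15 with SciPy 1.17.1, pandas 2.3.3, NumPy 2.4.6 and, for plots, matplotlib 3.10.9.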

Additional observations from a re-analysis of the deposited data

Results flagged for a closer look

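Each set of 4 values, the TPM of the 9 genes and of their pair partners, the 8 log2 differences within pairs and the summed TPM of the 7 targets, was searched for a replicate far from the others with Dixon's test at the 95% level. None of the 24 sets held one, where chance gives 1.20.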

How the results depend on the processing

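In TPM over all genes and in the deposited values, 9 and 7 of the 9 genes were lowest in replicate 1 in place of 4. In counts scaled to library size without length correction, 6 neighbours in place of 3 kept their order in every replicate, and 3 of the 9 genes held their rank. With the union of annotated exons as length 5 held it, and leaving out each replicate in turn left 5 to 9 at their rank. The mean log2 difference changed sign for SRXN1 minus TXNRD1 (-0.65), KEAP1 minus GCLC (-0.09) and OSGIN1 minus GCLM (-1.29) without length correction, and for GCLC minus NFE2L2 (-0.37) and OSGIN1 minus GCLM (-0.66) with exon unions. It also did for GCLC minus NFE2L2 without replicate 1 (-0.11) or 3 (-0.09), over a range of -0.11 to 0.23, and for OSGIN1 minus GCLM without replicate 2 (-0.07) or 3 (-0.14), over -0.14 to 0.33. These alternatives change only the length or the samples. The mean differences of the 8 chosen pairs kept their sign in the 10 alternatives, with NFE2L2 minus KEAP1 at -0.72 to -0.06, GCLC minus GCLM at 0.25 to 1.49 and OSGIN1 minus OSGIN2 at 0.12 to 1.58. The number of these pairs with 1 direction in every replicate fell from 7 to 5 without length correction, where exact permutation tests gave p = 0.875 for OSGIN1 minus OSGIN2 and 0.250 for NFE2L2 minus BACH1 (1.23), and to 6 with exon unions, where GCLC minus GCLM and OSGIN1 minus OSGIN2 lost it and NFE2L2 minus KEAP1 gained it. The number of genes above the median gene fell from 8 to 7 without length correction and to 6 without replicate 3. The number highest in replicate 3 was 7 or 8 in every alternative that holds it, while the share of all detected genes there ran from 12.8% to 26.1%. No paired comparison of groups was possible because there is 1 group, so no other group shares its replicate numbers. The tests between genes were made within replicates. Depth limits HMOX1 most, at 37 counts in replicate 4.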
